A study of Homo sapiens with 7 samples.

Results

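The miR-17 cluster, which runs from miR-17 to miR-92a, and the miR-106a-363 cluster are related microRNA genes, each transcribed as 1 long precursor from which several microRNAs are cut. The 10 microRNAs described here are all those of both clusters with an assay under their own name, of 377 human microRNAs measured. They are miR-17, miR-18a, miR-19a and miR-20a, which come only from the miR-17 cluster, then miR-106a, miR-18b, miR-20b and miR-363, which come only from miR-106a-363, and miR-19b and miR-92a, which both clusters make. They were chosen by name and not by their values, though earlier results of these data were known at the time.

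The microRNAs of 7 tumor cell lines were quantified by real-time PCR, using TaqMan Human MicroRNA Array A, with 1 card per line and no repeat. The oligometastatic group, L1-R2, held lines 3T, 4T and 8T, and the polymetastatic group, L1Mic-R2, held lines 2T, 3T, 7T and 8T. All descend from MDA-MB-435-GFP, an established human tumor line carrying green fluorescent protein that was long taken for breast carcinoma and is now held to be of melanoma origin. Cells were injected into the tail vein of athymic female mice. In the first round L1 cells were recovered from lung macrometastases, and L1Mic cells from the lung tissue of the same animal that was free of them. The R2 lines were each grown after a further passage from the lung of a distinct mouse, and tumor cells of both groups were selected with G418. Because both groups go back to 1 parental line, and each to 1 first round line, the spread within a group is that between sublines and not between tumors.

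MicroRNAs act by pairing with messenger RNAs through the seed, bases 2 to 8 of the mature strand, so that microRNAs with the same seed share many targets. The miR-17 cluster, also known as oncomir-1, is activated by MYC and by E2F factors and is amplified or overexpressed in many tumors. Its targets include the mRNAs of the cell cycle inhibitor CDKN1A and the apoptosis factor BCL2L11. The miR-106a-363 cluster arose from it by duplication and lies on the X chromosome.

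According to the RefSeq tables of build GRCh38.p14, the 6 hairpins of the miR-17 cluster lie at chr13:91350605-91351391 on the plus strand, inside the non-coding host gene MIR17HG (chr13:91347687-91354577). The 6 hairpins of miR-106a-363 lie at chrX:134169378-134170278 on the minus strand. All 10 microRNAs were found in the tables. Their mature sequences are shown by seed, because the comparisons below set paralogues with a shared seed side by side. They are written 5′ to 3′, with the seed in capitals. The first group has the seed AAAGUGC and holds the first hairpin of each cluster and the miR-20 pair.
miR-17: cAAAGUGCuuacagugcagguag
miR-106a: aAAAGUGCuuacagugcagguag
miR-20a: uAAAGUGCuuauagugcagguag
miR-20b: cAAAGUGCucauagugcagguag
The second group, the miR-18 pair with the seed AAGGUGC, is the second hairpin of each cluster.
miR-18a: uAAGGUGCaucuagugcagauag
miR-18b: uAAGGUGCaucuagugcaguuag
The third group, the miR-19 pair, has the seed GUGCAAA.
miR-19a: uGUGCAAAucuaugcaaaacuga
miR-19b: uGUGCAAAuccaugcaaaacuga
The last group has the seed AUUGCAC and ends each cluster.
miR-92a: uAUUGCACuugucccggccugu
miR-363: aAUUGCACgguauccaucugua

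Counted from the 5′ end, with the base of the first named microRNA given first, miR-17 and miR-106a differ by C1A, miR-18a and miR-18b by A20U, and miR-19a and miR-19b by U11C. The miR-20 pair differs by U1C and U10C. By contrast miR-92a and miR-363 differ at 12 of 22 positions, all of them outside the seed. Whether an assay also read the near identical paralogue was not tested. The assays of miR-19b and miR-92a cannot tell which cluster the RNA came from, since MIR19B1 and MIR19B2, and MIR92A1 and MIR92A2, give the same mature strand.

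The unit is the threshold cycle (Ct), the PCR cycle at which fluorescence crosses a fixed threshold. It is a log2 scale on which a lower Ct stands for more RNA. A Ct below 38 was called detected, and a well without a signal was set to 40. Between 172 and 184 of the 377 microRNAs were detected in L1-R2 lines and between 160 and 172 in L1Mic-R2 lines. The card numbers ran from 1 to 3 for L1-R2 and from 4 to 7 for L1Mic-R2, so that card order and group cannot be told apart. Of the control RNAs, raw Ct spanned 0.80 cycles over the 7 lines for U6, 2.29 for RNU44 and 2.16 for RNU48. The means in L1-R2 and L1Mic-R2 were 16.32 and 16.38 for U6, 24.69 and 25.58 for RNU44, and 19.83 and 20.55 for RNU48. Taking RNU44 and RNU48 as reference therefore shifts every raw Ct difference by the same amount, toward more RNA in L1Mic-R2. For comparisons of single microRNAs, the 7 cards were quantile normalized to each other and tested with limma over the 181 microRNAs detected in at least 3 lines, and all 10 cluster microRNAs were among these. A positive log2 difference below stands for more RNA in L1Mic-R2.

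The cell type markers on the cards were as follows. Of 7 microRNAs chosen as melanocyte lineage markers, 6 were on the card, and each of these was detected in at least 5 lines. The choice left out related assays, of which miR-507 was not detected in any line. Another, miR-513-5p, was detected only in L1-R2 lines 4T and 3T, at 36.53 and 36.77. The combined raw Ct of the 6, a single Ct for their summed level, was 18.30 to 19.08 in L1-R2 and 19.31 to 20.08 in L1Mic-R2. Nearly all of that level was miR-146a (18.32 to 19.11 and 19.33 to 20.10), which is also on the MYC list below. The combined Ct thus stands for miR-146a and says little of the others. Next came miR-204 at 25.79 to 26.01 and 26.31 to 26.92. In L1-R2 the raw Ct of miR-211 was 27.49 to 30.56. In L1Mic-R2 it was 33.33 in line 3T and 29.00 in line 7T, and undetermined in lines 2T and 8T. Its log2 difference was -6.57 ± 2.97 (SE, limma adjusted p = 0.267). Of the 6, 5 had a log2 difference below 0 and 0 above. Of 7 epithelial microRNAs, miR-200b and miR-200c were detected in all 7 lines, miR-200a in 4, miR-429 in 3 and miR-203 in 2. Undetermined in every line was miR-205, and miR-141 was not detected in any. The raw Ct of miR-200c was 30.10 to 34.02 in L1-R2 and 32.40 to 35.46 in L1Mic-R2. All 4 of the list that could be tested had a log2 difference below 0, with limma adjusted p-values from 0.176 to 0.737. The combined raw Ct of this list was 29.70 to 32.64 in L1-R2 and 31.70 to 34.65 in L1Mic-R2. Of 7 microRNAs chosen for blood and endothelium, 5 were matched by name on the card. Of these 5, miR-451 and miR-142-5p were undetermined in every line, and the combined raw Ct was 32.35 to 35.06 in L1-R2 and 28.71 to 32.30 in L1Mic-R2. In that last list the endothelial miR-126 had the lowest Ct, at 32.46 to 35.06 in L1-R2 and 28.71 to 32.41 in L1Mic-R2 (log2 difference 3.44 ± 0.98 (SE), limma adjusted p = 0.104). Detected in 4 lines, miR-223 had a log2 difference of 3.07 ± 1.26 (SE, limma adjusted p = 0.245). The other way went miR-142-3p, detected at 35.93 and 36.03 in L1-R2 lines 4T and 3T. It was undetermined in every L1Mic-R2 line and detected in too few lines to be tested. The 2 assays of miR-486 were not matched by name and are not in the combined Ct. Of these, miR-486-5p was detected only in L1-R2 line 4T at 37.14, and miR-486-3p only in L1Mic-R2 line 2T at 35.86. The part of these markers in the differences of the cluster microRNAs was not tested.

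All 10 cluster microRNAs were detected in both groups, and their mean raw Ct over the 7 lines ran from 21.48 for miR-106a to 35.19 for miR-18b. The lowest Ct values were those of miR-106a and miR-17, which ranked 2 to 4 and 4 to 6 among the 377 microRNAs of each card. They were followed by miR-19b, miR-20b, miR-19a, miR-20a, miR-92a, miR-18a, miR-363 and miR-18b. This order held in all 7 lines for each neighbouring pair except miR-19a and miR-20a, which kept it in 6 lines, and miR-18a and miR-363, which kept it in 5. Each pair of neighbours was compared on the same card, but the assays may differ in efficiency, so the order is one of Ct and not of molecules. Both miR-18 microRNAs stood far above the first hairpin of their own cluster in Ct.

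**Figure D1:**
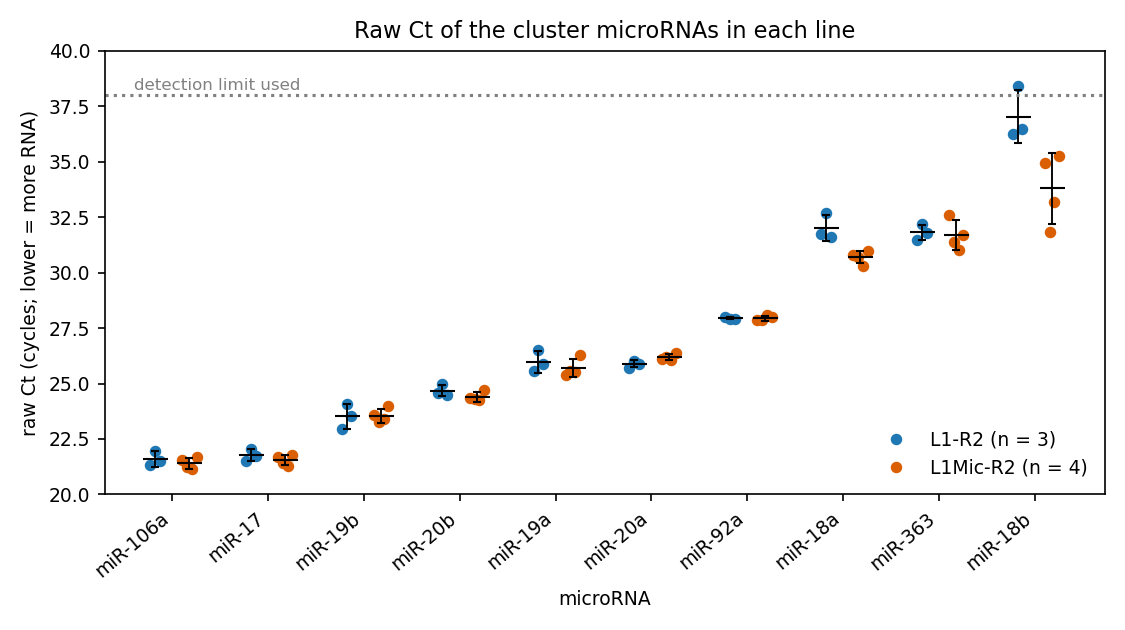
Raw Ct in cycles (y axis, lower stands for more RNA) of the 10 cluster microRNAs (x axis, in order of mean Ct) in each of 3 L1-R2 and 4 L1Mic-R2 lines. Points are lines, and black marks are the group mean ± SD. The L1Mic-R2 points of miR-18a and miR-18b lie below all L1-R2 points, and those of miR-20a lie above them.

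Of the 10 microRNAs, miR-18a was the only one called at an adjusted p under 0.05, and it was higher in L1Mic-R2. Over all 181 microRNAs tested, 9 were called (4.97%). At an unadjusted p under 0.05, miR-18a, miR-18b and miR-20b were higher in L1Mic-R2, which is 3 of 10 against 17 of 181 (9.39%), and none of the 10 was lower. The same 3 had quantile normalized values that did not overlap between the groups with L1Mic-R2 higher, against 16 of 181 (8.84%). With counts this small the share of the 10 can be read only as a description. The median log2 difference of the 10 was 0.37, beside 0.06 for all microRNAs tested, and 8 of the 10 differences were above 0, against 97 of 181. On raw Ct 7 of the 10 were above 0.

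The raw Ct of miR-18a was 31.74, 32.69 and 31.63 in lines 4T, 3T and 8T of L1-R2. In lines 2T, 3T, 7T and 8T of L1Mic-R2 it was 30.80, 30.71, 30.31 and 30.97. All 4 L1Mic-R2 values were lower in Ct than all 3 L1-R2 values. After quantile normalization miR-18a was 3.29-fold higher in L1Mic-R2 (log2 difference 1.72 ± 0.31 (SE), 95% confidence interval 0.96 to 2.48, limma adjusted p = 0.0392). It was higher in L1Mic-R2 under all 19 alternatives, with log2 differences of 1.32 to 2.12, but it kept its call under only 6 of them. Among the 13 in which it was lost were raw Ct (adjusted p = 0.109), RNU44 and RNU48 as reference (0.0664), no detection filter (0.104), a replicate block by line number (0.318 and 0.431) and the omission of any of the 7 lines (0.0553 to 0.115).

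The X-linked paralogue miR-18b had the highest Ct of the 10. Its raw Ct was 36.26, 38.39 and 36.46 in lines 4T, 3T and 8T of L1-R2, so that line 3T was above the detection limit. In lines 2T, 3T, 7T and 8T of L1Mic-R2 it was 34.93, 31.82, 33.18 and 35.27. The groups did not overlap, and L1Mic-R2 line 3T had the lowest Ct. The log2 difference was 3.86 ± 0.83 (SE, 95% confidence interval 1.84 to 5.88), and its adjusted p of 0.0545 by limma missed the threshold. That difference rests on wells late in the PCR, and it was 1.25 when Ct was limited to 35 (adjusted p = 0.460), whereas with Ct limited to 38 it was 3.60 (adjusted p = 0.0472). It also passed with the trend and robust options of limma (adjusted p = 0.0272).

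The third microRNA with an unadjusted p under 0.05, miR-20b, had a raw Ct of 24.57, 24.99 and 24.49 in lines 4T, 3T and 8T of L1-R2. In lines 2T, 3T, 7T and 8T of L1Mic-R2 it was 24.34, 24.29, 24.24 and 24.69. On this raw scale L1Mic-R2 line 8T overlapped L1-R2. The quantile normalized log2 difference was 0.62 ± 0.18 (SE, limma adjusted p = 0.105), while on raw Ct it was 0.29 (adjusted p = 0.535). With trend and robust options it passed (adjusted p = 0.0316).

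The other 7 microRNAs had limma adjusted p-values from 0.396 to 0.737. The log2 difference of miR-363 was 0.62 ± 0.39 (SE), that of miR-19a 0.41 ± 0.23 and that of miR-92a 0.33 ± 0.25. For the abundant first hairpins it was 0.24 ± 0.17 for miR-17 and 0.10 ± 0.15 for miR-106a, with 95% confidence intervals of -0.18 to 0.66 and -0.25 to 0.46, so that a change as large as the estimate for miR-18a lies outside both. These intervals hold only for the quantile normalized scale, on which both microRNAs took few distinct values. On raw Ct their differences were 0.23 and 0.20. The quantile normalized log2 differences of miR-19b and miR-20a were -0.09 ± 0.14 and -0.13 ± 0.14. Both turned positive, to 0.77 and 0.50, with RNU44 and RNU48 as reference, miR-19b also with U6 (0.02) and with the mean of all detected microRNAs as reference (0.20), and miR-92a was at -0.01 on raw Ct.

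Among these 7, miR-20a had raw Ct values of 25.72, 26.04 and 25.89 in lines 4T, 3T and 8T of L1-R2. They were 26.11, 26.19, 26.06 and 26.37 in lines 2T, 3T, 7T and 8T of L1Mic-R2. All L1Mic-R2 values were above those of L1-R2 in raw Ct, by 0.30 cycles on average (limma adjusted p = 0.464 on raw Ct), a direction opposite to that of miR-20b. The median raw log2 difference of all microRNAs tested was -0.25, and the quantile normalized values of miR-20a overlapped between the groups. For miR-92a, raw Ct stayed within 0.22 cycles over all 7 lines, from 27.85 to 28.07, the narrowest range of the 10.

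**Figure D2:**
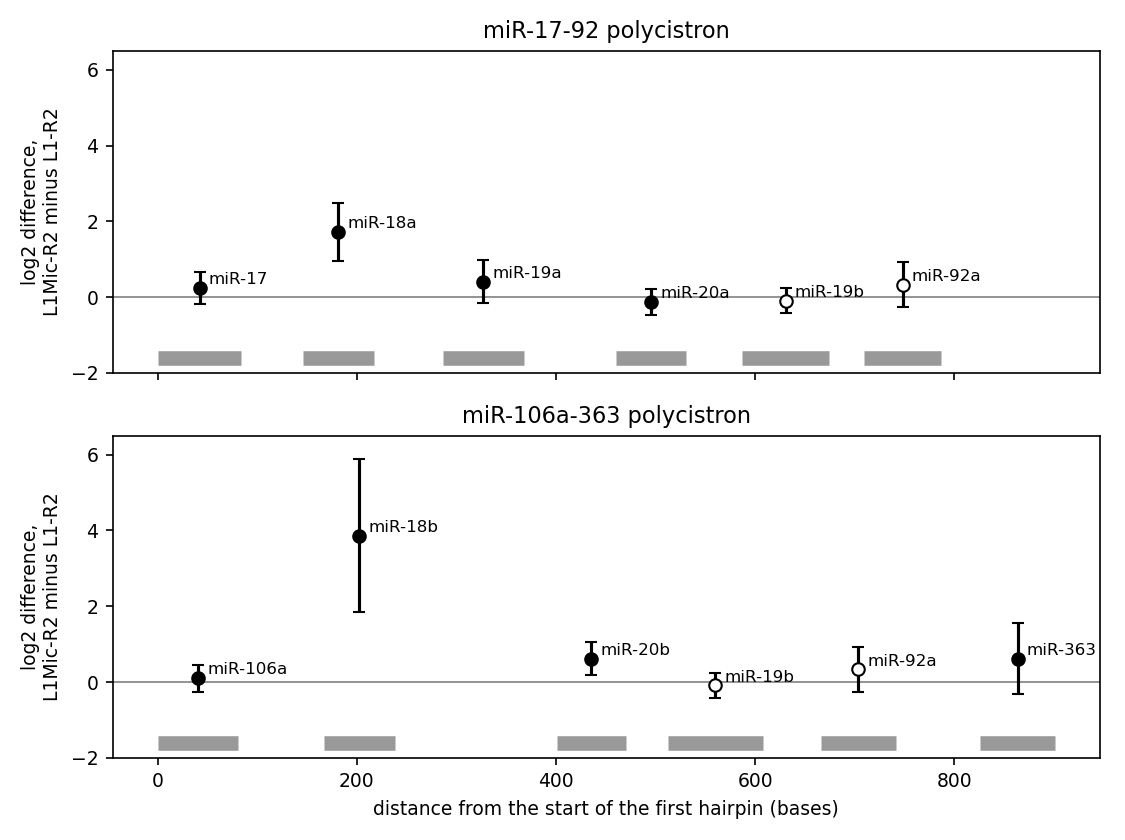
Log2 difference between L1Mic-R2 and L1-R2 (y axis, quantile normalized, positive for more RNA in L1Mic-R2) of each microRNA at the place of its hairpin, by distance in bases from the start of the first hairpin (x axis), in the miR-17 cluster (top) and miR-106a-363 (bottom). Points are limma estimates from 3 and 4 lines with 95% confidence intervals, open points are the microRNAs made by both clusters and drawn in both, and grey bars are the hairpins. In each cluster the second hairpin, miR-18a at 1.72 and miR-18b at 3.86, is the highest.

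By cluster, the mean log2 difference of the 4 microRNAs made only by the miR-17 cluster was 0.56, and that of the 4 made only by miR-106a-363 was 1.30. These means were not tested. Without the miR-18 microRNA of each cluster, a setting chosen after the data were seen, they were 0.17 and 0.45. The pair made by both clusters had a mean of 0.12, which was -0.021 on raw Ct and 0.029 to 0.22 when 1 line was left out, lowest without L1-R2 line 4T and highest without L1-R2 line 3T. By seed, the mean was 2.79 for the miR-18 pair, 0.48 for miR-92a with miR-363, 0.21 for the 4 microRNAs with AAAGUGC and 0.16 for the miR-19 pair. The quantile normalized mean Ct of the miR-18 pair was 34.29 to 35.83 in L1-R2 lines and 31.39 to 32.93 in L1Mic-R2 lines, so that the groups did not overlap.

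Setting each microRNA against miR-17 on the same card removes any difference in overall level between cards. Measured so, miR-18a, cut from the same precursor as miR-17, was 10.26 ± 0.37 cycles (SD, n = 3) above it in L1-R2 and 9.16 ± 0.12 cycles (SD, n = 4) in L1Mic-R2. The lines ranged from 9.90 to 10.64 and from 9.02 to 9.32, without overlap. For miR-20a the distance to miR-17 was 4.12 cycles in L1-R2 and 4.65 in L1Mic-R2, and for miR-19a it was 4.22 and 4.15. These distances are given as a description.

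Paralogues with a shared seed were compared in 5 pairs. The miR-17, miR-18 and miR-20 pairs set a microRNA made only by the first cluster against one made only by the second, whereas miR-19b and miR-92a are made by both, so that their pairs set no cluster against the other. For each pair the raw Ct difference within a card was averaged by group and the means were compared by exact permutation (two-sided), with p-values adjusted over the 5 pairs. With 3 lines against 4 this test cannot give a p below 0.0286, which for a single pair is 0.143 after adjustment. At least 3 of the 5 pairs would have had to reach that floor for any to pass, and none passed.

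The miR-20 pair came nearest. The Ct of miR-20b minus that of miR-20a was -1.15, -1.05 and -1.40 in lines 4T, 3T and 8T of L1-R2. In lines 2T, 3T, 7T and 8T of L1Mic-R2 it was -1.77, -1.90, -1.82 and -1.68. In all L1Mic-R2 lines miR-20b thus lay further below miR-20a than in any L1-R2 line, by 0.59 cycles on average ± 0.10 (SE). The exact permutation p was 0.0286, the smallest this design can give, and 0.143 after adjustment. Leaving out any line kept the difference between -0.69 and -0.52.

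In L1-R2 the miR-18 pair was 5.02 ± 0.62 cycles (SD, n = 3) apart, and in L1Mic-R2 3.10 ± 1.48 (SD, n = 4), with miR-18b higher in Ct on every card. In L1Mic-R2 line 3T the distance was only 1.10 cycles, while in lines 2T, 7T and 8T it was 4.13, 2.87 and 4.30. The groups did not overlap, yet the difference of -1.91 ± 0.92 (SE) gave an exact permutation p of 0.114 (0.190 adjusted). Without L1Mic-R2 line 3T the difference was -1.25, and with Ct limited to 35 it turned to 0.054. For the miR-19 pair, miR-19b minus miR-19a was -2.46 ± 0.15 (SD, n = 3) for L1-R2 against -2.13 ± 0.23 (SD, n = 4) for L1Mic-R2, again without overlap (exact permutation p = 0.114, 0.190 adjusted).

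For miR-17 and miR-106a the distance was nearly constant over all cards. Their assays differed by 0.07 to 0.21 cycles, with miR-106a the lower in every line, and the group means differed by 0.02 ± 0.04 cycles (SE, exact permutation p = 0.657, 0.8 adjusted). For miR-363 minus miR-92a the means were 3.88 and 3.74 cycles, with a difference of -0.14 ± 0.48 (SE, exact permutation p = 0.8).

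**Figure D3:**
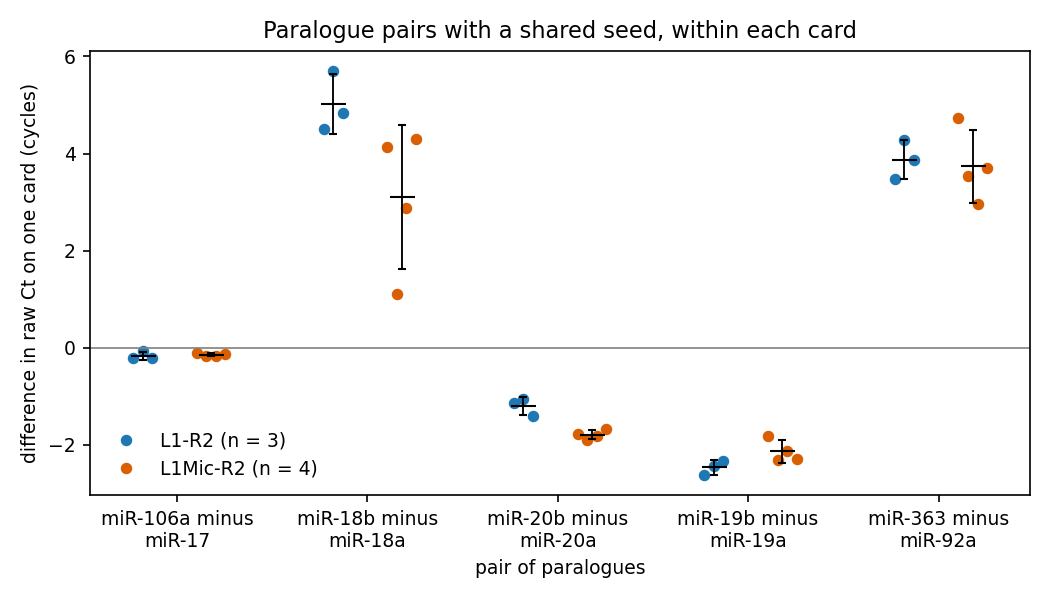
Difference in raw Ct on the same card (y axis, cycles) for the 5 pairs of paralogues with a shared seed (x axis), in 3 L1-R2 and 4 L1Mic-R2 lines. Points are lines, and black marks are the group mean ± SD. The groups do not overlap for the miR-18, miR-20 and miR-19 pairs, and the miR-17 and miR-106a pair stays within -0.21 to -0.07 in all lines.

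The same seeds occur outside the clusters in 6 further microRNAs on the card. Of these, miR-106b, miR-93 and miR-25 form the third paralogous cluster, at chr7:100093560-100094074 on the minus strand in an intron of MCM7, a helicase subunit of DNA replication. All 4 that could be tested missed the threshold, with a median log2 difference of 0.23. The difference was 0.46 ± 0.19 (SE) for miR-93 (limma adjusted p = 0.245), 0.01 ± 0.18 for miR-106b (0.976) and -0.26 ± 0.18 for miR-25 (0.488). It was 1.39 ± 1.25 for miR-32 (0.598), which was detected in 5 lines. Of the others, miR-367, a microRNA of pluripotent cells, was undetermined in every line, and miR-519d, of the placental cluster on chromosome 19, was detected only in L1-R2 line 8T at a raw Ct of 37.59.

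Among the other 134 microRNAs detected in all 7 lines, the 4 whose quantile normalized Ct ran most like that of miR-17 were miR-93 (Pearson r = 0.97), miR-20b (0.85), miR-18a (0.73) and miR-106a (0.71). For miR-106a they were miR-576-3p (0.77), miR-483-5p (0.75), miR-17 (0.71) and miR-363 (0.70). Each r is a description over 7 lines that share a parental line and a common normalization, in which miR-17 and miR-106a each took only 3 distinct values. On raw Ct, r with miR-17 was 0.99 for miR-106a, 0.88 for miR-20b and 0.78 for miR-18a, so that the order of these depends on the scale. No r on raw Ct was computed for miR-93.

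MYC activates the miR-17 cluster and represses another set of microRNAs, so 17 microRNAs known to be repressed by MYC were looked at as well. This list was chosen with earlier results of these data known, so its counts are a description. Whether MYC had a part in them was not tested. Of the 17, 15 could be tested, and miR-22 and miR-34a, a target of p53, were undetermined in every line. None was called, 13 had a log2 difference below 0, 1 above and 1 at 0, and the median was -0.26 beside 0.06 for all microRNAs tested. Of all those tested, 83 of 181 were below 0. The 1 at 0 was miR-146a, which held the same rank on every card, so that quantile normalization gave it the same value. Its raw Ct was 18.32 to 19.11 in L1-R2 and 19.33 to 20.10 in L1Mic-R2, without overlap. With RNU44 and RNU48 as reference 10 of the 15 were positive, but their median of 0.24 was again below that of all microRNAs tested, 0.56. At an unadjusted p under 0.05, 5 of the 15 were lower in L1Mic-R2, against 18 of 181 (9.94%), and the same 5 did not overlap between the groups, against 19 of 181 (10.5%).

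Named after their values were seen, these 5 were miR-26a at -0.75 ± 0.16 (SE, limma adjusted p = 0.0545), miR-30b at -0.69 ± 0.15 (0.0598), miR-30c at -0.62 ± 0.19 (0.121), miR-29c at -0.48 ± 0.14 (0.113) and miR-150 at -3.35 ± 1.31 (0.220). The raw Ct of miR-26a was 27.08 to 27.54 in L1-R2 and 28.24 to 29.00 in L1Mic-R2, and that of miR-30b was 24.20 to 24.63 and 25.10 to 25.52. For miR-150 it was 33.09 to 34.93 in L1-R2 and 35.54 to 40 in L1Mic-R2. Lines 3T and 7T of L1Mic-R2 were undetermined and set to 40, so that the size of its difference rests partly on that setting. By contrast let-7a, let-7d and let-7g, which restrain RAS and LIN28, had differences of -0.24, -0.18 and -0.26 with adjusted p-values of 0.842, 0.741 and 0.474.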

How the data were processed

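The 3 L1-R2 cards and the 4 L1Mic-R2 cards hold 1 line each. Per well, the authors deposited a threshold cycle (Ct) on a log2 scale and, as the paper states, they imported the data with SDS RQ Manager at a threshold of 0.3. The average Ct was used, with undetermined wells at 40. It was taken as deposited, before normalization. The labels of the samples mention SYBR and mammary fat pad, where the paper describes TaqMan and tail vein injection, which was used. For L1-R2, file names give 3T for the line labelled 4T and the reverse, and the labels were followed.

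The Ct of 381 assays was quantile normalized, and 40 minus Ct was tested with limma 3.58.1 in R 4.3.3 (lmFit and eBayes) with Benjamini-Hochberg adjustment over the 181 microRNAs below a Ct of 38 in at least 3 lines. Assay names without an arm were matched to the guide strand. Functions were tested on simulated data. Precision is limited by the number of cards.

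The members and lists were chosen with earlier results of these data known. Named microRNAs are the 10 members, tested microRNAs with their seeds, any called member of the MYC list (there was none), the 4 most like miR-17 and miR-106a, and the controls. Alternatives were other normalizations, Ct limits, detection filters and fits, leaving out each line, and a replicate block. Lines with the same number come from distinct animals.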

Additional observations from a re-analysis of the deposited data

Results flagged for a closer look

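After quantile normalization the Ct of miR-17 in L1Mic-R2 line 2T was 21.78, against 21.58 in each of the other 3 lines of that group, so that this line stood apart. The equal values arise because quantile normalization gives wells of equal rank the same value, and in raw Ct line 2T, at 21.67, lay between lines 3T at 21.40 and 8T at 21.78. Of 15 results examined in this way, chance alone would mark 0.75.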

How the results depend on the processing

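The direction of miR-18a, miR-18b, miR-20b, miR-17, miR-19a, miR-106a and miR-363 held under every alternative that gave them a value. With RNU44 and RNU48 as reference the median difference of all microRNAs tested moved to 0.56, and on raw Ct to -0.25. The difference of miR-92a turned to -0.010 on raw Ct, that of miR-19b to 0.025 relative to U6, 0.77 relative to RNU44 and RNU48 and 0.20 relative to the mean of all detected microRNAs, and that of miR-20a to 0.50 with RNU44 and RNU48. The number of the 10 called was 0 on raw Ct, with RNU44 and RNU48, with no detection filter, by the Student test of the methods (adjusted p of miR-18a 0.0687) and under either replicate block, 2 with Ct limited to 38 and 3 with the trend and robust options of limma. Of all microRNAs, 0 were called with RNU44 and RNU48, no filter, the Student test or either replicate block, 14 when only those detected in all 7 lines were tested, which left out miR-18b, and 21 with trend and robust. In the settings with 0 calls of all, 19 to 37 had an unadjusted p under 0.05 by the same test. When 1 line was left out, 0 of the 10 were called each time, while 3 to 4 of the 10 had an unadjusted p under 0.05 by limma. Of all microRNAs 0 to 4 were called, with 0 without L1-R2 line 3T, L1-R2 line 8T or L1Mic-R2 line 2T, where 28 to 36 had an unadjusted p under 0.05 by limma.

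The mean difference of the miR-17 cluster was 0.39 on raw Ct and 1.19 with RNU44 and RNU48. The mean of the pair made by both clusters was 0.78 with RNU44 and RNU48, and that of miR-106a-363 was 1.77 with RNU44 and RNU48 and 0.65 with Ct limited to 35. By seed, AAAGUGC was at 0.91 with RNU44 and RNU48 as reference and GUGCAAA at 0.94. Relative to the mean of all detected microRNAs they were at 0.34 and 0.37, and AUUGCAC was at 0.86 with RNU44 and RNU48, 0.060 on raw Ct and 0.12 with U6. AAGGUGC was at 1.49 with Ct limited to 35.

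The pair difference of miR-18b minus miR-18a reversed to 0.054 with Ct limited to 35. When 1 line was left out, miR-363 minus miR-92a ranged from -0.48 to 0.12 and miR-106a minus miR-17 from -0.00046 to 0.069. With a line left out the exact p of a pair cannot go below 0.0667 for 2 lines against 4 or 0.1 for 3 against 3.

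The numbers 3T and 8T are shared by the groups as numbers only, and the deviations of same-numbered lines correlated at -0.04 and -0.20, so the numbers were not taken to pair the lines. With the replicate block miR-18a differed by 1.96 (adjusted p = 0.431) by label numbers and by 1.44 (0.318) by file name numbers. With the block, miR-19b minus miR-19a was 0.081 by label numbers and the GUGCAAA mean was 0.0016 by file name numbers. The cause of these changes was not tested, and 1 card per line limits what can be detected.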
